A study of Homo sapiens with 6 samples.

Results

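Mucin, trefoil and goblet differentiation genes were followed in tumours grown from HT-29 cells, an established human colon adenocarcinoma line. The 10 genes were MUC1, MUC2, MUC13, TFF1, TFF3, FCGBP, AGR2, SPDEF, CEACAM5 and CEACAM6, and all 20 probe sets that the platform annotation gives to them alone were taken, out of 54675 on the array and 41097 that name a single gene. No probe set named one of them together with another gene. The hosts were Balb/c (nu/nu) mice, which lack a thymus, aged 6 to 8 weeks when cells were placed in each femoral region. The RNA was compared in 3 pools. The treated pool came from tumours that received 30 min of modulated electro-hyperthermia, an electromagnetic heating, at day 18 and were taken 4 h later. The opposite-side pool came from the unheated tumours on the other flank of those treated animals, and the control pool from tumours of control animals, for which the labels name no sham procedure. All tumours were of this line and in this host, and the tumour regions were dissected from frozen sections.

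Each pool was run on 2 arrays as technical replicates, per the labels, and the number of animals in a pool is not given in the labels. The comparisons therefore describe 3 pools against array error, no test between conditions was possible, and an SD given below is between those 2 arrays. Values are log2 expression. A probe set was taken as detected in a comparison when both arrays of either pool were at or above 5, and was called higher or lower when the difference of the pool means was 1 (2-fold) or more, or in a second, smaller class 0.5 (1.41-fold) or more, with the same sign in all 4 pairs of arrays and both arrays of the higher pool at or above 5. The 99th percentile of the difference between arrays of a pool was 0.344 in treated, 0.320 in opposite-side and 0.281 in control tumours, and 0 detected probe sets differed 2-fold between arrays of a pool. These figures cover the probe sets with both arrays of that pool at or above 5. The heat markers HSPA6, DNAJB1, HSPH1 and BAG3 matched the treated label, with 7 of 7 detected probe sets called higher against control. The differences were 1.24 to 2.02 for the last 3 genes. The HSPA6 pair was at least 13.1-fold and 6.45-fold higher when its control values, below 5, are taken as 5. In opposite-side against control tumours 1 of 6 was also called higher, HSPA6 on 213418_at by 0.97 (at least 1.76-fold against 5). The 6 differences ran from -0.16 to 0.97, with BAG3 at 0.42. Of 11 markers of colonic epithelium 8 were detected, among them EPCAM and KRT20, while CDX1 (at most 2.37 on any array), CDX2 (at most 2.53) and CDH17 (at most 4.81) were not.

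Goblet cells are the secretory cells of the intestinal lining that make its mucus. MUC2 is the gel-forming mucin of colonic mucus, and FCGBP, the IgG Fc-binding protein, and the trefoil peptides TFF1 and TFF3 are secreted with it. AGR2 is a disulfide isomerase of the endoplasmic reticulum that mice need to make the MUC2 mucin, and SPDEF is an ETS transcription factor that drives goblet cell maturation in mice. MUC1 and MUC13 are not gel-forming but span the apical membrane, and CEACAM5 and CEACAM6 are adhesion proteins anchored in that membrane by a glycolipid. CEACAM5 is the carcinoembryonic antigen measured in patients with colorectal cancer.

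Stretches of 250 bases before the annotated start are shown for MUC1, MUC13 and FCGBP, the called members that have one, for AGR2, whose stretch was chosen because it holds a heat shock element core, and for the paralogous CEACAM pair (RefSeq, GRCh38.p14, 5′ to 3′ on the gene's strand). Promoters were given for 8 of the 10 members. Capitals mark matches on either strand to the TATA box TATAAA, the heat shock element core GAANNTTC, the hypoxia response core ACGTG or the STAT element TTCNNNGAA. These letters occur in 10.7%, 5.78%, 18.5% and 6.57% of 35116 promoter stretches of this length, in that order. MUC1 lies at chr1:155192916-155193165 on the minus strand, MUC13 at chr3:124934752-124935001 on the minus strand, FCGBP at chr19:39934635-39934884 on the minus strand and AGR2 at chr7:16805000-16805249 on the minus strand, whereas CEACAM5 at chr19:41708376-41708625 and CEACAM6 at chr19:41755280-41755529 are on the plus strand.
MUC1: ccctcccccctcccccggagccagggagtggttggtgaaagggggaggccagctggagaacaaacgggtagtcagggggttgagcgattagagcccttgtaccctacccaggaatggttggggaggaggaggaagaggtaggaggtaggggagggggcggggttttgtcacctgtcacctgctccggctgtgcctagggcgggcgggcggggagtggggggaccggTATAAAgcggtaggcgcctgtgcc
MUC13: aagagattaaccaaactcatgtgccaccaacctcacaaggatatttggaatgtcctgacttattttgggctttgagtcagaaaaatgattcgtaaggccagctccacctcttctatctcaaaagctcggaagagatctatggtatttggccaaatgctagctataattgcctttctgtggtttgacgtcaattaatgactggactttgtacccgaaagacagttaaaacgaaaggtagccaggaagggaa
FCGBP: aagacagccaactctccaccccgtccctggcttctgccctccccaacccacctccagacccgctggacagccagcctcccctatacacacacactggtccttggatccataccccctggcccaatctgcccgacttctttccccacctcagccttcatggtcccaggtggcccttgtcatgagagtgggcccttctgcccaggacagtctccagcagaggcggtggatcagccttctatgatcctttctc
AGR2: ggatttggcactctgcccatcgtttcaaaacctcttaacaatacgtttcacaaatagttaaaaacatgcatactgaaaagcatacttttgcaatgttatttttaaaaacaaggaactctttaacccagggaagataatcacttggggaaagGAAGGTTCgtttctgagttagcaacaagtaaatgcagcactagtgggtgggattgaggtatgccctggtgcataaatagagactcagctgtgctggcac
CEACAM5: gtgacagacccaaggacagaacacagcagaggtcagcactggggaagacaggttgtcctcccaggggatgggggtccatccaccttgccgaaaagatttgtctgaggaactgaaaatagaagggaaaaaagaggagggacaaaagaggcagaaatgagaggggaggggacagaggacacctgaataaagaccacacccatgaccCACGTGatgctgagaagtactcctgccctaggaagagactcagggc
CEACAM6: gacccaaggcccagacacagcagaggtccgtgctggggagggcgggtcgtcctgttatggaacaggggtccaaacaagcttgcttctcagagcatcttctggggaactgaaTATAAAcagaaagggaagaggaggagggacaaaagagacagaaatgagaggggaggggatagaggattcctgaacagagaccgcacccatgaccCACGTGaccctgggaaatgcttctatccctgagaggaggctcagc
The MUC1 stretch held a TATA box at -24 to -19 from the start. The MUC13 and FCGBP stretches held none of the 4 motifs. AGR2 was the sole member among the 8 with the heat shock element core, at -99 to -92. Both CEACAM stretches contained CACGTG close to the start, in which the hypoxia core matches on both strands with overlap, and CEACAM6 also had TATAAA at -139 to -134. Over their 250 bases the CEACAM5 and CEACAM6 stretches were identical in 74.6% of the 260 aligned positions. A match describes the letters of this window and is not evidence of a bound site.

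Between treated and control tumours the set was lower wherever it was called. Of 14 detected probe sets of 8 genes, 4 were called lower by at least 0.5 and 0 higher, and 1 of the 4, for MUC1, was lower by more than 1. Among the 10612 detected probe sets of the array 3.2% were called lower and 4.33% higher by at least 0.5, and 0.858% were called in either direction by at least 1. Both detected MUC1 probe sets are among the 4. The median difference over the 14 was -0.24, against -0.01 over all detected probe sets. The genes were chosen with earlier results of these data known, so this contrast describes the list and does not measure enrichment. In 11 of the 14 all 4 array pairs lay below 0 and in 1 all lay above 0. That share was not counted over all detected probe sets, whose median absolute difference was 0.156. Between the arrays of a pool the median difference was 0.056 in treated and 0.049 in control tumours. The 11 are therefore not shown to be particular to these genes.

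MUC1, the larger and better studied of the transmembrane mucins here, was lower on both of its detected probe sets. On probe set 207847_s_at it read 5.89 and 6.06 in treated tumours, 6.63 and 6.61 in opposite-side tumours, and 7.02 and 7.00 in control tumours. The arrays of the 3 pools did not overlap, with treated lowest and control highest. The treated mean of 5.98 ± 0.117 was 1.03 below the control mean of 7.01 ± 0.015, a 2.04-fold difference and the 15th lowest of all detected probe sets in this comparison. Without the first treated array the difference was -0.95, just short of the 2-fold class. Probe set 213693_s_at read 7.97 and 7.95 in treated tumours, 8.44 and 8.52 in opposite-side tumours, and 8.56 and 8.53 in control tumours. Here the treated arrays stood apart by 0.59 below control, while the opposite-side mean differed from the control mean by -0.06. The third MUC1 probe set, 211695_x_at, lay at 2.80 to 2.85 on all arrays and was not detected.

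MUC13, the other transmembrane mucin of the colon among these genes, had 2 detected probe sets. On 222712_s_at it read 5.45 and 5.35 in treated tumours, 6.16 and 5.94 in opposite-side tumours, and 5.89 and 5.79 in control tumours. The treated arrays were below all 4 others. Against control the difference was -0.44 and did not reach 0.5. On 218687_s_at the values were 8.41 and 8.36 in treated tumours, 8.71 and 8.69 in opposite-side tumours, and 8.66 and 8.77 in control tumours, a treated minus control difference of -0.33 that was not called. Both probe sets thus had the treated arrays lowest, without overlap, and the opposite-side minus control differences were 0.21 and -0.01.

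MUC2 was not detected, with 4.40 and 4.38 in treated tumours, 4.40 and 4.30 in opposite-side tumours, and 4.62 and 4.57 in control tumours on its single probe set. The control arrays were the highest, but all 6 values lay below 5, so no fold is given.

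**Figure D1:**
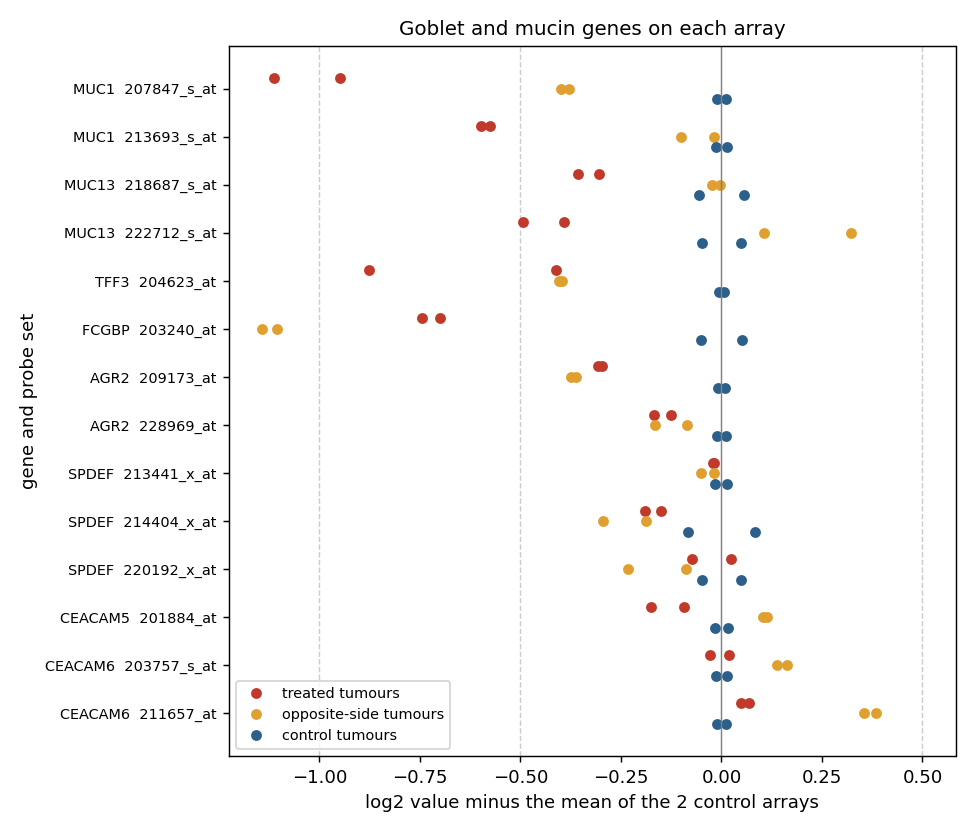
Each point is 1 array, as its log2 value minus the mean of the 2 control arrays, for the 14 probe sets detected against control (treated, opposite side and control from top to bottom in each row; dashed lines at -1, -0.5 and 0.5). The treated arrays of both MUC1 probe sets lie to the left of all others, and for FCGBP the opposite-side arrays lie furthest left.

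FCGBP, a protein of the mucus gel, was lower in both pools from treated animals. It read 5.28 and 5.33 in treated tumours, 4.89 and 4.92 in opposite-side tumours, and 5.98 and 6.08 in control tumours. The 3 pools did not overlap, and the opposite-side tumours had the lowest values. Treated tumours were lower than control tumours by 0.72 (1.65-fold), with means of 5.31 ± 0.033 and 6.03 ± 0.073.

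The trefoil peptide TFF3, which promotes repair of the epithelium in mice, was the last of the 4 probe sets called. It read 4.95 and 4.49 in treated tumours, 4.96 and 4.97 in opposite-side tumours, and 5.37 and 5.36 in control tumours. Control tumours alone were at or above 5, so treated tumours were at least 1.29-fold lower when taken against 5, and the measured difference was -0.64. The gap between the treated arrays exceeded the 99th percentile for that pool. That percentile was taken over probe sets with both arrays at or above 5, which these treated values are not. Without the second treated array the difference was -0.41, below the class of 0.5. TFF1, a trefoil peptide better known from the stomach, stayed below 5 with a highest value of 3.80 and is not compared.

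AGR2, the partner of mucin folding, was not called in treated tumours. On 209173_at it read 11.65 and 11.63 in treated tumours, 11.57 and 11.58 in opposite-side tumours, and 11.95 and 11.93 in control tumours. Arrays of a pool were within 0.02 of each other, and the treated minus control difference of -0.30 had array pairs of -0.32 to -0.29. The second probe set, 228969_at, differed by -0.15, with 7.70 and 7.66 in treated tumours, 7.66 and 7.74 in opposite-side tumours, and 7.84 and 7.81 in control tumours. Both AGR2 probe sets placed the 4 arrays from treated animals below the 2 control arrays, and treated and opposite-side tumours overlapped on the second.

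SPDEF had 5 probe sets, all of the _x_at kind, whose probes can match other transcripts. On 214404_x_at it read 6.23 and 6.19 in treated tumours, 6.09 and 6.19 in opposite-side tumours, and 6.46 and 6.30 in control tumours, a treated minus control difference of -0.17. Probe sets 213441_x_at and 220192_x_at differed by -0.02 and -0.03, and on the second of these the treated and control arrays overlapped. The remaining 2, 213442_x_at and 214403_x_at, lay at 2.70 and 3.05 in all pools. No SPDEF probe set was called in any comparison.

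CEACAM5 and CEACAM6 showed treated minus control differences near 0. CEACAM5 on 201884_at read 5.94 and 5.86 in treated tumours, 6.13 and 6.14 in opposite-side tumours, and 6.01 and 6.05 in control tumours, a difference of -0.13. Its second probe set, 217291_at, was above 3 on a single treated array (3.26) and at 2.75 on the other 5. CEACAM6 on 211657_at read 10.48 and 10.46 in treated tumours, 10.79 and 10.76 in opposite-side tumours, and 10.42 and 10.40 in control tumours. Its treated minus control difference was 0.06 there and -0.01 on 203757_s_at, where the treated and control arrays overlapped. The adhesion genes were thus highest in the opposite-side tumours on each of their 3 detected probe sets.

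**Figure D2:**
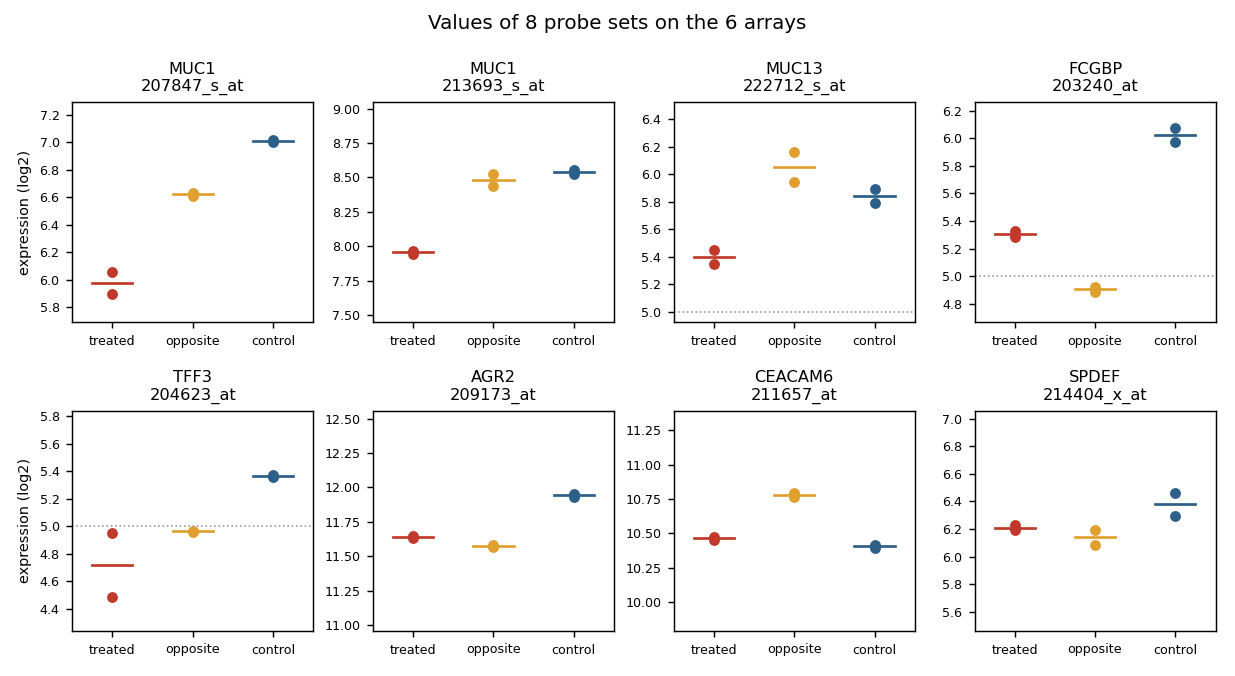
Log2 expression of 8 probe sets in treated, opposite-side and control tumours; points are arrays, bars the means of 2 arrays, all panels span the same range, and the dotted line marks 5. MUC1 (207847_s_at) is stepped over the 3 pools, MUC13 is lowest in treated tumours, FCGBP lowest in opposite-side tumours, and CEACAM6 highest in opposite-side tumours.

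Treated tumours were next set against the unheated tumours of the same animals. The transmembrane mucins accounted for all calls here, with 3 of 13 detected probe sets lower by at least 0.5 and 0 higher. Of 10538 detected probe sets of the array, 2.34% were called lower and 3.7% higher by at least 0.5, and 0.342% were called by at least 1, a class that held 0 of the 13. MUC1 was lower by 0.64 on 207847_s_at and by 0.53 on 213693_s_at, and MUC13 was lower by 0.66 on 222712_s_at. These are 1.56-fold, 1.44-fold and 1.58-fold differences. The second MUC13 probe set differed by -0.32, and without the second opposite-side array the MUC1 difference on 213693_s_at was -0.49.

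No secreted product was called in this comparison. FCGBP differed by 0.40, with higher values in treated tumours (at least 1.24-fold when the opposite-side mean is taken as 5), and AGR2 by 0.07 on 209173_at and -0.02 on 228969_at. SPDEF probe sets differed by 0.01 to 0.14. CEACAM6 differed by -0.31 on 211657_at and -0.16 on 203757_s_at, and CEACAM5 by -0.24, with all array pairs below 0. TFF3 lay below 5 in both pools. The median over the 13 was -0.16, against 0.01 over all detected probe sets. The treated arrays also carried higher spike-in controls, RNAs added in fixed amounts, by a median of 0.33 over 39 probe sets. With the arrays set to the same spike-in median every treated minus opposite-side difference moved by -0.23. AGR2 and SPDEF then had negative differences on all their detected probe sets, FCGBP differed by 0.18, and 5 probe sets of these genes were called lower.

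In opposite-side tumours against control tumours FCGBP alone was called. It was lower by 1.12, and at least 2.04-fold when the opposite-side mean of 4.90 ± 0.026 is taken as 5, the 15th lowest difference of the array. That is 1 of 14 detected probe sets, where 4.29% of 10569 were called lower and 2.9% higher by at least 0.5, and 0.501% in either direction by at least 1. TFF3 differed by -0.40, MUC1 by -0.39 on 207847_s_at and AGR2 by -0.37 on 209173_at, with the arrays of both pools apart in each, but none reached 0.5. On the other side, CEACAM6 differed by 0.37 on 211657_at and 0.15 on 203757_s_at, MUC13 by 0.21 on 222712_s_at and CEACAM5 by 0.11. The median over the 14 was -0.09, against -0.01 over all. With the spike-in scaling every difference of this comparison moved by 0.24, so that the median became 0.14, MUC1 on 213693_s_at turned to 0.18, FCGBP fell by 0.89 and CEACAM6 on 211657_at rose by more than 0.5.

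MUC1 and MUC13 thus differed from FCGBP in the pool with the lowest values. On the detected MUC1 and MUC13 probe sets treated tumours were lowest, and on FCGBP opposite-side tumours were lowest. MUC1 and MUC13 did not share a full order, as opposite-side minus control was -0.39 on MUC1 207847_s_at and 0.21 on MUC13 222712_s_at. The treated mean was also lowest on CEACAM5 201884_at, on TFF3, and on CEACAM6 203757_s_at, where treated and control arrays overlapped. AGR2 and SPDEF gave no clear order of treated and opposite-side tumours. Treated minus opposite-side differences were 0.07 and -0.02 for AGR2 and 0.01 to 0.14 for SPDEF. All were smaller than the percentiles of array differences given above (0.344 in treated and 0.320 in opposite-side tumours). Those percentiles are of single arrays over many probe sets and not of pool means, so they do not settle the order for 1 probe set. The arrays of these pools were apart only on AGR2 209173_at, with array pairs of 0.054 to 0.076, and SPDEF 220192_x_at, with 0.015 to 0.255. With the spike-in scaling the AGR2 and SPDEF means were lowest in treated tumours. Because both differences from control use the same control arrays, their values are given side by side and not as independent evidence. For MUC1 they were -1.03 treated and -0.39 opposite side on 207847_s_at, and -0.59 and -0.06 on 213693_s_at. For FCGBP they were -0.72 and -1.12, and for TFF3 -0.64 and -0.40. AGR2 had -0.30 and -0.37 on 209173_at, and -0.15 and -0.13 on 228969_at. By distance in this pair of differences, the detected probe sets nearest to MUC1 (207847_s_at) were those of CHD2 (0.066), GYG2 (0.104) and EPB41L4A-AS1 (0.109), and 21 of 10725 lay within 0.25. Nearest to FCGBP were a pair of SIPA1L2 probe sets (0.065 and 0.096) and ADM (0.142), with 14 within 0.25. The measure covers 3 pools, so that many unrelated genes can share a pattern.

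**Figure D3:**
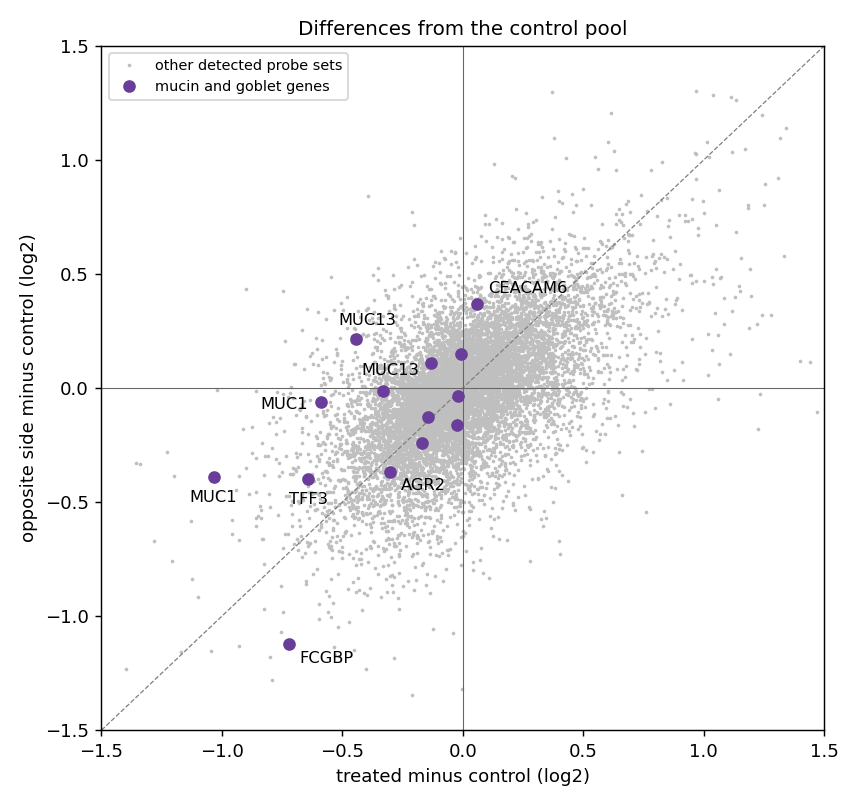
Treated minus control (horizontal, log2) against opposite side minus control (vertical, log2) for 10739 detected probe sets, of which 27 lie outside the axes; both axes share the control arrays and the dashed line marks equal differences. MUC1 and MUC13 lie above the line on the left, with larger negative differences in treated tumours, and FCGBP lies below it.

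Other genes of mucus production were read with the same classes. Of 16 measured other mucins MUC20, a transmembrane mucin, was the one detected, with differences of -0.50 (226622_at) and -0.31 (231941_s_at) in treated against control and -0.47 and -0.24 in treated against opposite-side tumours, none of them called. MUC5AC, the gastric and airway gel-forming mucin, exceeded 5 on a single control array (5.23 on an _x_at probe set) and was not detected. Of the 14 measured genes listed here as other goblet products 4 were detected, namely AGR3, BCAS1, ERN2 and SYTL2. None of their 5 probe sets was called, which holds for this chosen list and not for all goblet products. ERN2, the epithelial stress sensor of the endoplasmic reticulum, differed by -0.41 in treated and -0.38 in opposite-side tumours, and BCAS1 by -0.28 and -0.42. AGR3, a paralogue of AGR2, differed by -0.01 and 0.05, and the SYTL2 pair by 0.00 and 0.06 in treated and by 0.23 and 0.39 in opposite-side tumours. The list medians were -0.01 and 0.05. CLCA1, ZG16, RETNLB and ITLN1, secreted by mature goblet cells, were at most 2.37 on any array, as was ATOH1, the factor that commits cells to the secretory lineage. The 7 other measured CEACAM genes were all below the level of detection.

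Over all detected probe sets 3.2% were called lower and 4.33% higher by at least 0.5 in treated than in control tumours. Among regulators of the secretory lineage 4 of 24 detected probe sets were lower and 2 higher. The lower ones belonged to ELF3 and EHF, epithelial ETS factors like SPDEF. ELF3 was lower by 0.68 on 210827_s_at and 0.57 on 201510_at and differed by -0.38 on 229842_at, and EHF was lower by 0.64 and 0.58 on 232360_at and 232361_s_at but differed by -0.05 on 225645_at. JAG1, a Notch ligand, was higher by 0.84 and 0.81 on its 2 detected probe sets. In opposite-side against control tumours 5 of the 24 were lower, 3 of ELF3 (by 0.89, 0.70 and 0.50), 1 of EHF (by 0.69) and that of CREB3L1, whose opposite-side mean of 4.89 lay below 5 (at least 1.34-fold when taken as 5, measured difference -0.53), and the JAG1 pair was higher by 0.58 and 0.57. Over all detected probe sets the shares there were 4.29% lower and 2.9% higher. In treated against opposite-side tumours SOX9 was higher by 0.55 on 202935_s_at and 0 were lower, where 3.7% of the array was higher and 2.34% lower. With the spike-in scaling the opposite side against control comparison had 1 lower and 16 higher probe sets over this list and the other 5 of mucus production. The medians of the regulator list were -0.06 for treated minus control, 0.18 for treated minus opposite side and -0.09 for opposite side minus control.

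The enzymes that add and extend mucin sugars did not share the lower values. Of 29 detected probe sets of 17 genes, GALNT1, which starts O-glycan chains, was higher in treated than in control tumours by 0.70 on 201722_s_at, with its 3 other detected probe sets at -0.06 to 0.34, and 0 were lower. That is 1 of 29, where 4.33% of all detected probe sets were called higher and 3.2% lower. The list median was 0.14. Against opposite-side tumours 3 of 30 were higher, a pair of ST3GAL1 (by 0.54 and 0.51), a sialyltransferase, and that of GCNT3 (by 0.52), which branches mucin O-glycans, and with the spike-in scaling 0 of the probe sets of these lists stayed higher. Over all detected probe sets 3.7% were called higher against opposite-side tumours. In opposite-side against control tumours 0 of 30 were called, where 4.29% of the array was lower and 2.9% higher. Of 23 detected probe sets for disulfide isomerases and their oxidases, relatives or partners of AGR2, 0 were called against control in either pool, with medians of 0.05 in treated and 0.05 in opposite-side tumours. ERO1A, an oxidase that serves them, was lower by 0.65 on 218498_s_at in treated against opposite-side tumours. It was the 1 call among the 23 there, where 2.34% of the array was called lower. Against control this probe set differed by -0.16 in treated and 0.496 in opposite-side tumours. The ERO1A probe sets 222646_s_at and 225750_at differed by -0.43 and -0.19 in treated against opposite-side tumours and were not called.

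Some markers of other cells moved with these comparisons. By at least 0.5, 3.2% of all detected probe sets were called lower and 4.33% higher in treated than in control tumours. The shares were 4.29% lower and 2.9% higher in opposite-side against control tumours. In treated against opposite-side tumours they were 2.34% lower and 3.7% higher. The 9 detected probe sets of colonic epithelium had medians of 0.12 in treated minus control, -0.01 in treated minus opposite side and 0.09 in opposite side minus control, and 0 were called. Of 15 enterocyte markers 2 were detected. DPP4 on 211478_s_at was called lower than in control tumours in both other pools, with differences of -0.84 in treated and -0.52 in opposite-side tumours, while its other 2 probe sets differed by -0.16 and -0.38 in treated tumours and were not called. SLC26A2 was called lower in opposite-side than in control tumours (-0.73), differed by -0.14 in treated tumours and was called higher in treated than in opposite-side tumours (0.59). Of 8 fibroblast and smooth muscle markers 3 were detected, and their 3 detected probe sets were called higher in both pools from treated animals. TAGLN was higher by 1.66 in treated and 1.04 in opposite-side tumours, VIM by 1.14 and 1.26, and COL1A1 by 0.67 and 0.50. In treated against opposite-side tumours TAGLN was higher by 0.62, while VIM differed by -0.13 and COL1A1 by 0.17. The fibroblast markers DCN and PDGFRB were at most 2.56 and 2.38 on any array. ACTA2 and COL1A2 were not detected either. Their highest probe set means in treated, opposite-side and control tumours were 4.29, 4.12 and 4.10, and 3.30, 3.30 and 3.27. COL3A1, also not detected, had 4.98, 4.88 and 3.94. The summed linear signal over the 29 probe sets of the 8 markers was 937 to 949 in treated, 811 to 829 in opposite-side and 486 to 529 in control tumours. Of 5 skeletal muscle markers, MYL11 was higher by 1.60 in treated and 0.84 in opposite-side than in control tumours, and ACTA1 was at least 1.21-fold higher in treated tumours when its control mean of 3.10 is taken as 5. TNNT3 differed by 0.06 and 0.00, and CKM and DES were at most 2.40 and 3.11 on any array. Leukocyte and endothelial markers were at or near the lowest value of the table (at most 2.43 and 2.72). The probes are human, and whether these signals came from mouse tissue or tumour cells, and their part in the differences of the mucin and goblet genes, was not tested. Probe sets for the ends of control transcripts, a sign of RNA integrity and labelling, moved as well. The ACTB probe set at the 5′ end differed from control by 1.12 in treated and 1.27 in opposite-side tumours, and that at the 3′ end by 0.23 and 0.15. For GAPDH the 5′ probe set differed by -0.46 in treated minus control and -0.45 in treated minus opposite side, and the 3′ probe set by -0.03 in both. Their part in the results was not tested either. In pooled bulk RNA fewer cells of a type and less RNA per cell cannot be told apart.

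**Figure D4:**
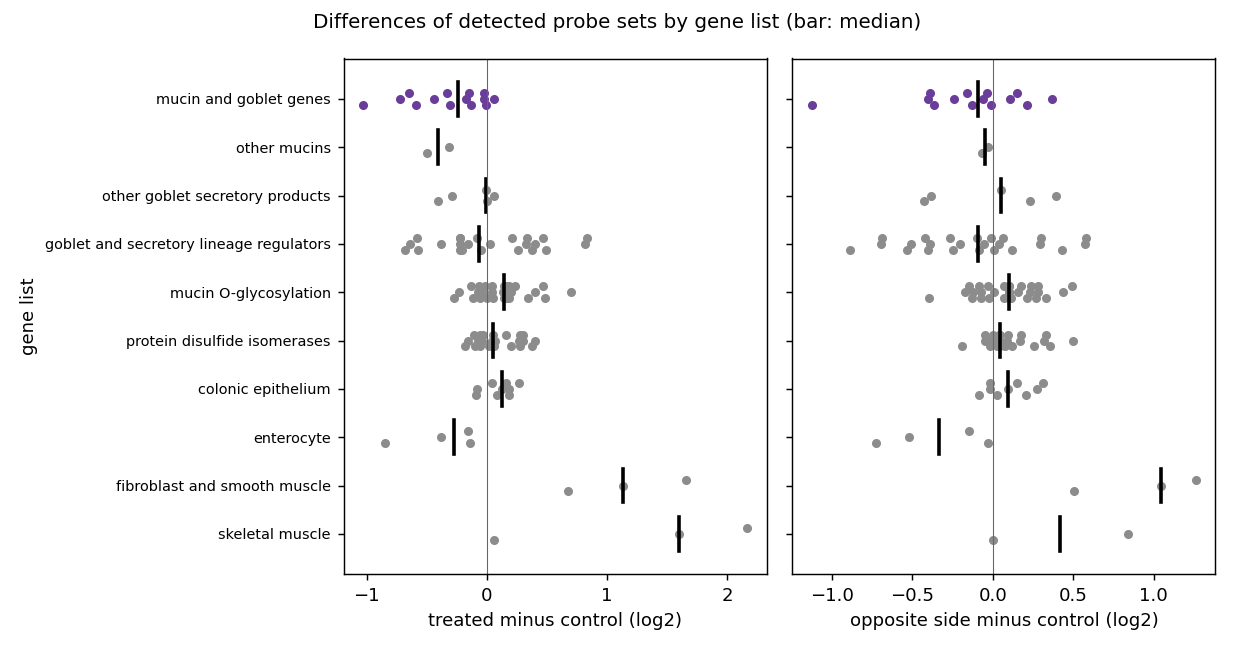
Differences of detected probe sets (points, log2) by gene list, treated minus control on the left and opposite side minus control on the right, with bars at the list medians. The mucin and goblet genes have a median of -0.24 on the left and -0.09 on the right, and the O-glycosylation enzymes 0.14 and 0.10.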

How the data were processed

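Each of 3 RNA pools of HT-29 xenografts was run on 2 Affymetrix arrays of 54675 probe sets. The deposited values are log2 expression values per probe set, and GCRMA, without a version, is credited to the submitters' processing notes. It corrects background, normalizes quantiles across arrays and summarises probes. The log2 scale was read from the values, which share a lowest value of 2.37. Arrays have no depth, and precision is limited by how many there are.

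Probe sets were named through the platform annotation. Of them 41097 named 1 gene, 1801 several and 11777 none, and 41043 of the first were matched to current symbols by Entrez identifier. Comparisons used all probe sets with 1 gene, fitted no model and tested nothing, since a pool is 1 sample. Named were all members, the largest differences and calls of each context list, heat markers and nearest patterns. The members and lists were chosen with earlier results of these data known. MUC5AC and the undetected markers were named after their values were seen. The rule was tested on simulated data. The work used pandas 2.3.3, numpy 2.4.6 and matplotlib 3.10.9 under Python 3.11.15.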

Additional observations from a re-analysis of the deposited data

How the results depend on the processing

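No paired analysis was possible because each group is 1 pool whose 2 arrays are technical runs, so that no result comes from a test. Among 15 settings, no called difference of a mucin or goblet gene changed sign. Many of these settings could not have shown such a change. A call needs the same sign in all pairs of arrays, so leaving out an array cannot reverse it. The floors and the removal of probe sets leave a difference as it is or drop it. Counts below are of probe sets, those of the 6 context lists (mucus, lineage, sugar and disulfide genes) following those of the members.

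With a floor of 6, members lower by 0.5 numbered 2 in treated against control and 0 in opposite side against control, where 0 were lower by 1. Floor 4 left the member counts as they were and gave in the context lists 7 lower and 5 higher in treated against control and 4 lower in treated against opposite side. With the spike-in scaling, 5 members were lower in treated against opposite side, and in opposite side against control 1 was higher by 0.5 and 0 lower by 1. The context lists then had 5 lower and 0 higher in treated against opposite side, and 1 lower and 16 higher in opposite side against control. Quantile normalization gave 4 higher there.

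Without _x_at and _s_at probe sets, which removes both detected MUC1 and MUC13 pairs, 2 members were lower by 0.5 and 0 by 1 in treated against control, and 0 in treated against opposite side. The context lists had 2 lower and 0 higher, 0 lower and 2 higher, and 0 higher in the 3 comparisons in the order used above. With 1 probe set a gene, 0 members were lower by 1 in treated against control and 1 lower by 0.5 in treated against opposite side, and the context lists had 1 lower and 1 higher, 0 and 2, and 2 and 1.

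Leaving out each array in turn, members lower by 1 in treated against control ranged from 0 (without the first treated array) to 1. Members lower by 0.5 ranged from 3 to 4 there and from 2 to 3 in treated against opposite side. In the context lists the higher ones ranged from 3 to 5 in treated against control (5 without the first treated or the second control array), from 2 to 5 in treated against opposite side (2 without the second treated array) and from 2 to 4 in opposite side against control (4 without the second control array). The lower ones in treated against opposite side ranged from 1 to 2 (2 without the second array of either pool). The lower counts rest on few probe sets, and signals near 5 limit FCGBP, TFF3 and MUC2.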
